A study of Mus musculus with 2 samples.

Results

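The GABA and glutamate transmitter genes are 8 genes: Gad1, Gad2, Slc32a1, Slc17a6, Slc17a7, Slc17a8, Slc6a5 and Slc6a9. Slc6a5 and Slc6a9 encode glycine uptake transporters, and the rest serve to make a fast transmitter or to load it into vesicles. They were taken by name, 8 of 21911 protein-coding genes with a name on the nuclear chromosomes. The rule that names them uses no measured value, but they were proposed with earlier results of these data known. For each gene, 2 kinds of region were read. A promoter peak is one that overlaps a stretch of 1000 bp up or down from an annotated start of the gene, and a window peak is one centred in the gene body or within 50 kb on either side of it.

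DNase-seq cuts chromatin with DNase I and sequences the freed ends, so that regions where the DNA is accessible stand out as peaks. The tissue was midbrain of healthy B6NCrl mouse embryos at day 14.5, males and females pooled. There was 1 group with 2 biological replicates and nothing to set it against, so the values below are descriptions and carry no test. The labels give each replicate its own sample but the same donor, and how much of their spread is technical was not tested.

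GABA is made from glutamate by the glutamate decarboxylases and is packed into synaptic vesicles by a vesicular transporter that also carries glycine, while glutamate is packed by a family of vesicular glutamate transporters. Glycine is cleared by a pair of plasma membrane transporters, of which GlyT2 marks glycine-releasing neurons and GlyT1 is best known from glia. The embryonic midbrain makes glutamate and GABA neurons for the colliculi and tegmentum, and the GABA neurons there depend on GATA family factors.

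The authors' lists held 710176 peaks in replicate 1 and 267958 in replicate 2, and read depth is unknown. Each peak carries the authors' own whole-number value, at most 150, and the middle value was 6 in replicate 1 against 51 in replicate 2. The values are not scaled between replicates, so each was ranked within its own replicate. A peak was called shared when its replicate 2 interval overlapped a replicate 1 peak by at least 1 bp, which held for 171429 peaks. A shared promoter peak was found at 68.9% of all named protein-coding genes. All 7 midbrain markers, all 4 progenitor markers and all 4 neuron markers had one. So did all 3 forebrain markers, 1 of 4 hindbrain and spinal cord markers, 2 of 3 endothelial markers and 2 of 3 meningeal markers, against 0 of 3 microglial and 0 of 4 erythroid markers. In bulk tissue, a site open in few cells and a site weakly open in many cannot be told apart, and the part of other cell types in the values below was not tested.

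The sequences below are the shared distal peaks, centred more than 1000 bp from any protein-coding start, that had the highest rank over both replicates at each member. Beside them stand peaks picked for their motif matches: both parts of the REST element at Gad1, a homeodomain and a GATA match together at Gad2 and Slc6a5, in peaks nearest the member's own start, and 2 GATA matches at Slc32a1. Each is 150 bases of the plus strand of mm10, read 5′ to 3′. Numbers after the gene name give the distance in bp of the peak's centre from the gene's 5′ end, with a minus sign upstream. Capitals mark exact matches, on either strand, to any of 20 short consensus motifs. Neighbouring matches can overlap, as the GC box GGGCGG and the CTCF core AGGGGGC do at Slc17a6 and Slc6a9.
Gad1 +5259 (chr2:70558256-70558405): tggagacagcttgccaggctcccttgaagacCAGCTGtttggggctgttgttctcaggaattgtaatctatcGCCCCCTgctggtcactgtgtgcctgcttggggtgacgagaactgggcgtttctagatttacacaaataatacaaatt
Gad1 +6659 (chr2:70559656-70559805): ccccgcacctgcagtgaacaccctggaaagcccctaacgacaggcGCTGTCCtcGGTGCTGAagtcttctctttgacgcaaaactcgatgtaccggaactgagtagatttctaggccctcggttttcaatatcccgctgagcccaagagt
Gad2 -2014 (chr2:22620116-22620265): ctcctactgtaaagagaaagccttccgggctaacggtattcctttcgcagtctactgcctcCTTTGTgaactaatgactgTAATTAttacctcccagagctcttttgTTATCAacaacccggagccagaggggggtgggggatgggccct
Gad2 +99826 (chr2:22721956-22722105): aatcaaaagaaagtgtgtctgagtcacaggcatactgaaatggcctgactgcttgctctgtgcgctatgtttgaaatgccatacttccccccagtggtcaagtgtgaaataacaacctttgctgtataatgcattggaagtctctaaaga
Slc32a1 -42676 (chr2:158568016-158568165): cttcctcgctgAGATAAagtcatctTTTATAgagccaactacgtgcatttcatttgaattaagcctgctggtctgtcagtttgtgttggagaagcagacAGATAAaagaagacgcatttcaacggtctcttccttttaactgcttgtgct
Slc32a1 -25536 (chr2:158585156-158585305): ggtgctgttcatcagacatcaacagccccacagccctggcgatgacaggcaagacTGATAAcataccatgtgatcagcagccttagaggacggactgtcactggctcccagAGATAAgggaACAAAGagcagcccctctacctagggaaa
Slc32a1 -3936 (chr2:158606756-158606905): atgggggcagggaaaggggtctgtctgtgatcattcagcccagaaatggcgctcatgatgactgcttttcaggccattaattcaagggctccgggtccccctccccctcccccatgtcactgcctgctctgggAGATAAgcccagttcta
Slc17a6 +5445 (chr7:51627376-51627525): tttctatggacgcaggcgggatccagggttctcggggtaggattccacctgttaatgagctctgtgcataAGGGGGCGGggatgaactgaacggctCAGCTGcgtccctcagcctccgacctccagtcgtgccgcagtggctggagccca
Slc17a7 -1858 (chr7:45162016-45162165): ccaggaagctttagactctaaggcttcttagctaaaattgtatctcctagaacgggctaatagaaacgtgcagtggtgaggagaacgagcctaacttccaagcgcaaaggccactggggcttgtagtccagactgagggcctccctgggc
Slc17a8 -9018 (chr10:89630196-89630345): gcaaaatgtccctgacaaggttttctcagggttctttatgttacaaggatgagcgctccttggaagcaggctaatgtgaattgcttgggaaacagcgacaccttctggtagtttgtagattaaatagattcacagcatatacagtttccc
Slc6a5 -2475 (chr7:49907596-49907745): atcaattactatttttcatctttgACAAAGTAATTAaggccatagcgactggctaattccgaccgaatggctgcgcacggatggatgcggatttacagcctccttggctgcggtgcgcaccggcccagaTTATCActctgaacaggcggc
Slc6a5 +13425 (chr7:49923496-49923645): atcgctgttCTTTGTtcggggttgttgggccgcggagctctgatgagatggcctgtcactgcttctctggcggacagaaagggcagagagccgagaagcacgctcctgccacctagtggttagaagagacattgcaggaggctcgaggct
Slc6a9 +1925 (chr4:117836356-117836505): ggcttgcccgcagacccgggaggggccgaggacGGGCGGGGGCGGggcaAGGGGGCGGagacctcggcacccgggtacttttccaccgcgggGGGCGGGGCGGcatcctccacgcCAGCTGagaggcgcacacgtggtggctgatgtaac

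The capitals at Gad1 +5259 are the second E-box searched, CAGCTG, and the reverse complement of AGGGGGC. At Gad1 +6659 they are GGACAGC and TCAGCACC, both parts of the element of REST, a repressor that keeps neuronal genes silent outside neurons, each read on the opposite strand. At Gad2 -2014 and Slc6a5 -2475 they are the homeodomain core TAATTA, the GATA form TGATAA and the SOX form ACAAAG. The same pair of TAATTA and TGATAA also occurs in a Slc17a8 window peak at +89942, whose nearest coding start is that of Nr1h4. The share of all shared distal peaks that hold this pair was not counted. The Slc32a1 peaks hold the GATA forms AGATAA or TGATAA, one of them with the TATA box letters TATAAA and another with ACAAAG. At Slc17a6 +5445 and Slc6a9 +1925 the capitals are the second E-box, the GC box and the CTCF core, and at Slc6a5 +13425 the SOX form. The strongest distal peaks of Slc17a7, of Slc17a8 and the Gad2 +99826 peak hold none of the 20 motifs.

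All 8 members had a shared promoter peak, against 68.9% of all named protein-coding genes. Taken singly, replicate 1 gave a promoter peak for 8 of 8 members against 75.8% of all genes, and replicate 2 for 8 of 8 against 72.4%. At least 3 shared promoter peaks were found at 6 of 8 members, against 27.3% of all genes. The exceptions were Slc17a7 and Slc17a8. Such a count can grow with the length of the promoter stretch, which was 2001 bp at Slc32a1 and 9165 bp at Slc6a9. The stretch was not matched to that of other genes. The median member stood at percentile 45.7 for its strongest promoter peak, averaged over both replicates, against 50.2 for all genes. Genes with no promoter peak are ranked too, and tie at percentile 12.1 in replicate 1 and 13.8 in replicate 2. Among genes with a promoter peak alone, the members would therefore rank lower.

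**Figure D1:**
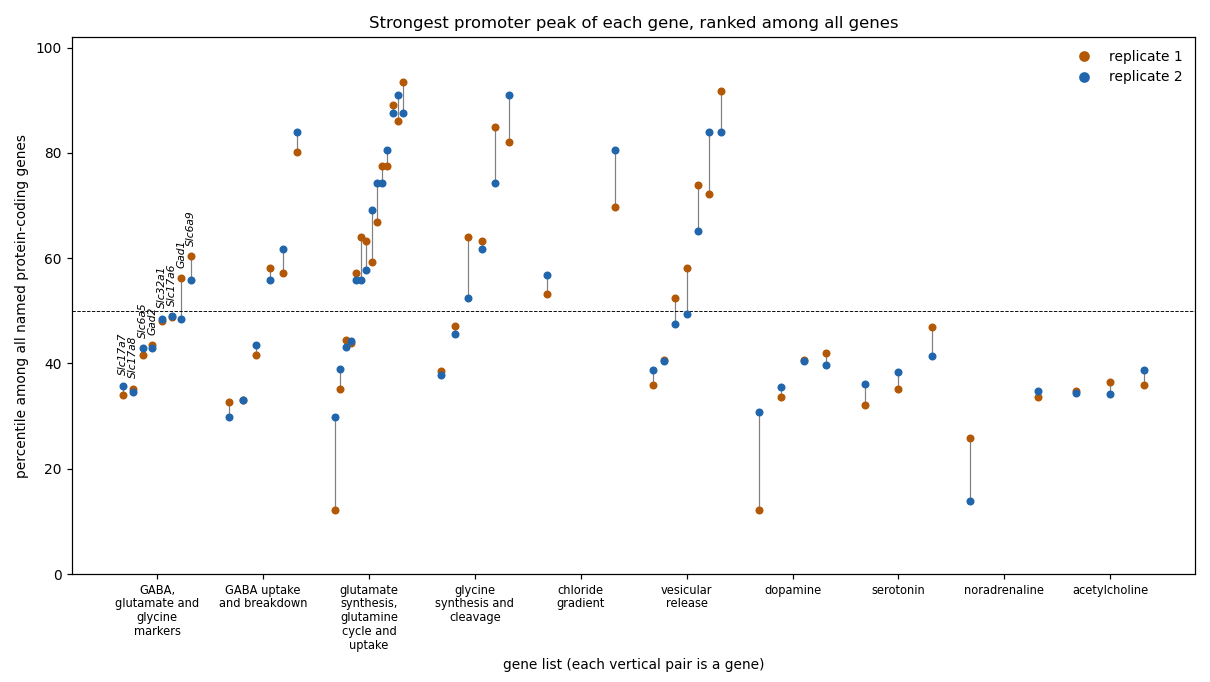
Percentile of the strongest promoter peak of each gene among all named protein-coding genes (vertical axis, percent), with the 8 members at the left and the other pathway lists after them; each vertical pair is a gene, orange for replicate 1 and blue for replicate 2, and the dashed line marks the middle of the scale. In replicate 1 the members run between Slc17a7 at 34.0 and Slc6a9 at 60.4, and in replicate 2 between Slc17a8 at 34.6 and Slc6a9 at 55.8.

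Gad1 encodes GAD67, the decarboxylase that makes most of the GABA in the embryonic brain. Its strongest promoter peak had a value of 75 in replicate 1 and 119 in replicate 2, at percentiles 56.2 and 48.5 of all genes. That peak, at chr2:70561156-70561305, lies 8159 bp inside the annotated gene. The gene's own 5′ end was nearly bare: it held 1 peak, of value 8, in replicate 1 and none in replicate 2. The RefSeq promoter of Gad1, chr2:70561879-70562178, lies downstream of that 5′ end and held a shared peak of value 49 in replicate 1 and 108 in replicate 2. Open chromatin at Gad1 thus sat around its internal starts and not at the outermost annotated one.

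Between them the Gad1 starts carried 10 promoter peaks in replicate 1 and 11 in replicate 2, of which 7 and 8 were shared. The run of peaks went on to either side of the internal starts, the first of which lies 8970 bp inside the gene. A single replicate 2 hotspot, a broader region of enrichment in the authors' lists, covered 11350 bp here, between 4851 and 16200 bp downstream of the 5′ end. The widest hotspot at the Gad1 starts in replicate 1 spanned 3192 bp. Within this run lies the +5259 peak, with values of 100 in replicate 1 and 123 in replicate 2. The REST-bearing +6659 peak, with 38 and 105, lies there too, and both are upstream of the internal starts. The antisense transcript Gad1os overlaps the same stretch, and DNase-seq does not assign a peak to a strand.

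Gad2 encodes GAD65, the decarboxylase tied to synaptic vesicles. The strongest promoter peak of Gad2 had a value of 41 in replicate 1 and 105 in replicate 2, at percentiles 43.5 and 42.9. The promoter held 9 peaks in replicate 1 and 8 in replicate 2, with 8 shared in each. Unlike Gad1, Gad2 had its strongest peaks at the 5′ end itself, where 5 and 4 peaks overlapped. A hotspot of 9246 bp in replicate 1 and one of 5914 bp in replicate 2 covered that end. The strongest distal peak in the Gad2 window lay far away, at +99826, beyond the 3′ end, with values of 64 in replicate 1 and 117 in replicate 2. Its nearest protein-coding start is that of Apbb1ip, 52063 bp away.

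Slc32a1 encodes VGAT, the vesicular carrier for GABA and glycine, and is a short gene of 4982 bp with a single annotated start. At its start the strongest peak had a value of 54 in replicate 1 and 119 in replicate 2, at percentiles 48.0 and 48.5. The promoter held 4 peaks in replicate 1 and 5 in replicate 2, and 4 of each were shared. The strongest distal peak, at -3936, had values of 74 in replicate 1 and 126 in replicate 2. It lies in an intron of the noncoding transcript Gm14204, which runs the other way from a start at -44 bp, so the shared start region cannot be assigned to either transcript.

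Slc17a6 encodes VGLUT2, the vesicular glutamate transporter of most midbrain and brainstem glutamate neurons. The top promoter peak of Slc17a6 had a value of 56 in replicate 1 and 120 in replicate 2, at percentiles 48.8 and 49.0. The 56 belongs to a peak 2545 bp inside the gene and that of 120 to a peak at the 5′ end, where replicate 1 had 54. All 10 promoter peaks of replicate 1 and 10 of 12 in replicate 2 were shared, which made Slc17a6 the member with the most. Its strongest distal peak, at +5445 in an intron, had values of 60 in replicate 1 and 128 in replicate 2.

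Slc17a7 encodes VGLUT1, the vesicular glutamate transporter of the cerebral cortex and hippocampus. The top promoter peak of Slc17a7 had a value of 16 in replicate 1 and 73 in replicate 2, at percentiles 34.0 and 35.7, and the lower of these is the lowest of the 8 in replicate 1. Both belong to internal starts. At the 5′ end, replicate 1 had a peak of value 11 and replicate 2 a peak of value 58, and these did not overlap each other. A stronger pair of shared peaks lay just upstream, with values of 93 in replicate 1 and 141 in replicate 2 at -1858 and 66 and 120 at -1598.

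Slc17a8 encodes VGLUT3, a vesicular glutamate transporter found in scattered neurons that often release a second transmitter. Its strongest promoter peak had a value of 19 in replicate 1 and 67 in replicate 2, at percentiles 35.2 and 34.6. It was the member's only shared promoter peak. The -9018 peak, upstream of the gene, was stronger, with values of 66 in replicate 1 and 117 in replicate 2.

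Slc6a5 encodes GlyT2, the glycine transporter of glycine-releasing neurons, which are chiefly hindbrain and spinal cord cells. The strongest promoter peak had a value of 36 in replicate 1 and, at another place, 105 in replicate 2, at percentiles 41.6 and 42.9. The 36 belongs to a peak at +465, where replicate 2 had 95, and the 105 to a peak at -1015, where replicate 1 had 35. Its promoter was thus ranked close to that of Gad2 in each replicate. The promoter held 10 peaks in replicate 1 and 7 in replicate 2, with 7 and 6 shared. The strongest distal peak, at +13425 in an intron, had values of 86 in replicate 1 and 128 in replicate 2.

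Slc6a9 encodes GlyT1, the glycine transporter of glia and some neurons. Among its promoter peaks the strongest had a value of 83 in replicate 1 and 130 in replicate 2, at percentiles 60.4 and 55.8, the highest of the 8 in both replicates with this window. That peak, at +1925 in an intron, is also its strongest distal peak, since it lies 993 bp from a noncoding start and 1034 bp from the nearest coding one. Slc6a9 also has the most annotated starts of the 8, 12, and so the longest promoter stretch, 9165 bp, in which a peak could fall.

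In order of their mean percentile the members ran Slc6a9, Gad1, Slc17a6, Slc32a1, Gad2, Slc6a5, Slc17a8 and Slc17a7. Several neighbours in that order did not keep it in both replicates. Slc17a6 stood above Gad1 in replicate 2, at 49.0 against 48.5. Gad2 and Slc6a5 tied in replicate 2 at 42.9, Slc17a6 and Slc32a1 lay within 1 percentile point in each replicate, and Slc17a8 stood above Slc17a7 in replicate 1 and below it in replicate 2. The order depends on the window. With 2000 bp on either side of a start, Slc17a7 came to a mean percentile of 70.1, above all other members, against 34.8 with 1000 bp, and Slc6a9 to 57.4. With 500 bp, Slc6a9 came to 47.3, below Slc17a6 at 49.6 and Slc32a1 at 49.4. With the 5′ end only, Slc6a9 came to 50.2, below Slc17a6 at 52.4 and Slc32a1 at 52.2, and Gad1 to 25.2. The choice of start also decided some calls: with the gene's 5′ end alone, 6 of 8 members had a shared promoter peak against 64.3% of all genes, Gad1 and Slc17a7 being the ones without. With protein-coding starts alone, 7 of 8 had one against 67.5%, and Slc17a7 did not. Of 13 RefSeq promoter windows listed for the 8 genes, 10 held a shared peak, and those 10 covered 7 genes, again all but Slc17a7. The share over the RefSeq windows of all genes was not counted, so these counts only describe the members.

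The windows around the members held 678 peaks in replicate 1 and 266 in replicate 2, and 203 of the replicate 2 peaks were shared. The median member had 25 shared peaks, against 12 for all genes. At least 20 were found at 7 of 8 members, against 21.8% of all genes. Over the 203 peaks the values of both replicates ranked alike, with a Spearman correlation of 0.908, against 0.900 over all 171429 shared peaks. These are correlations across peaks of the same pair of libraries.

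**Figure D2:**
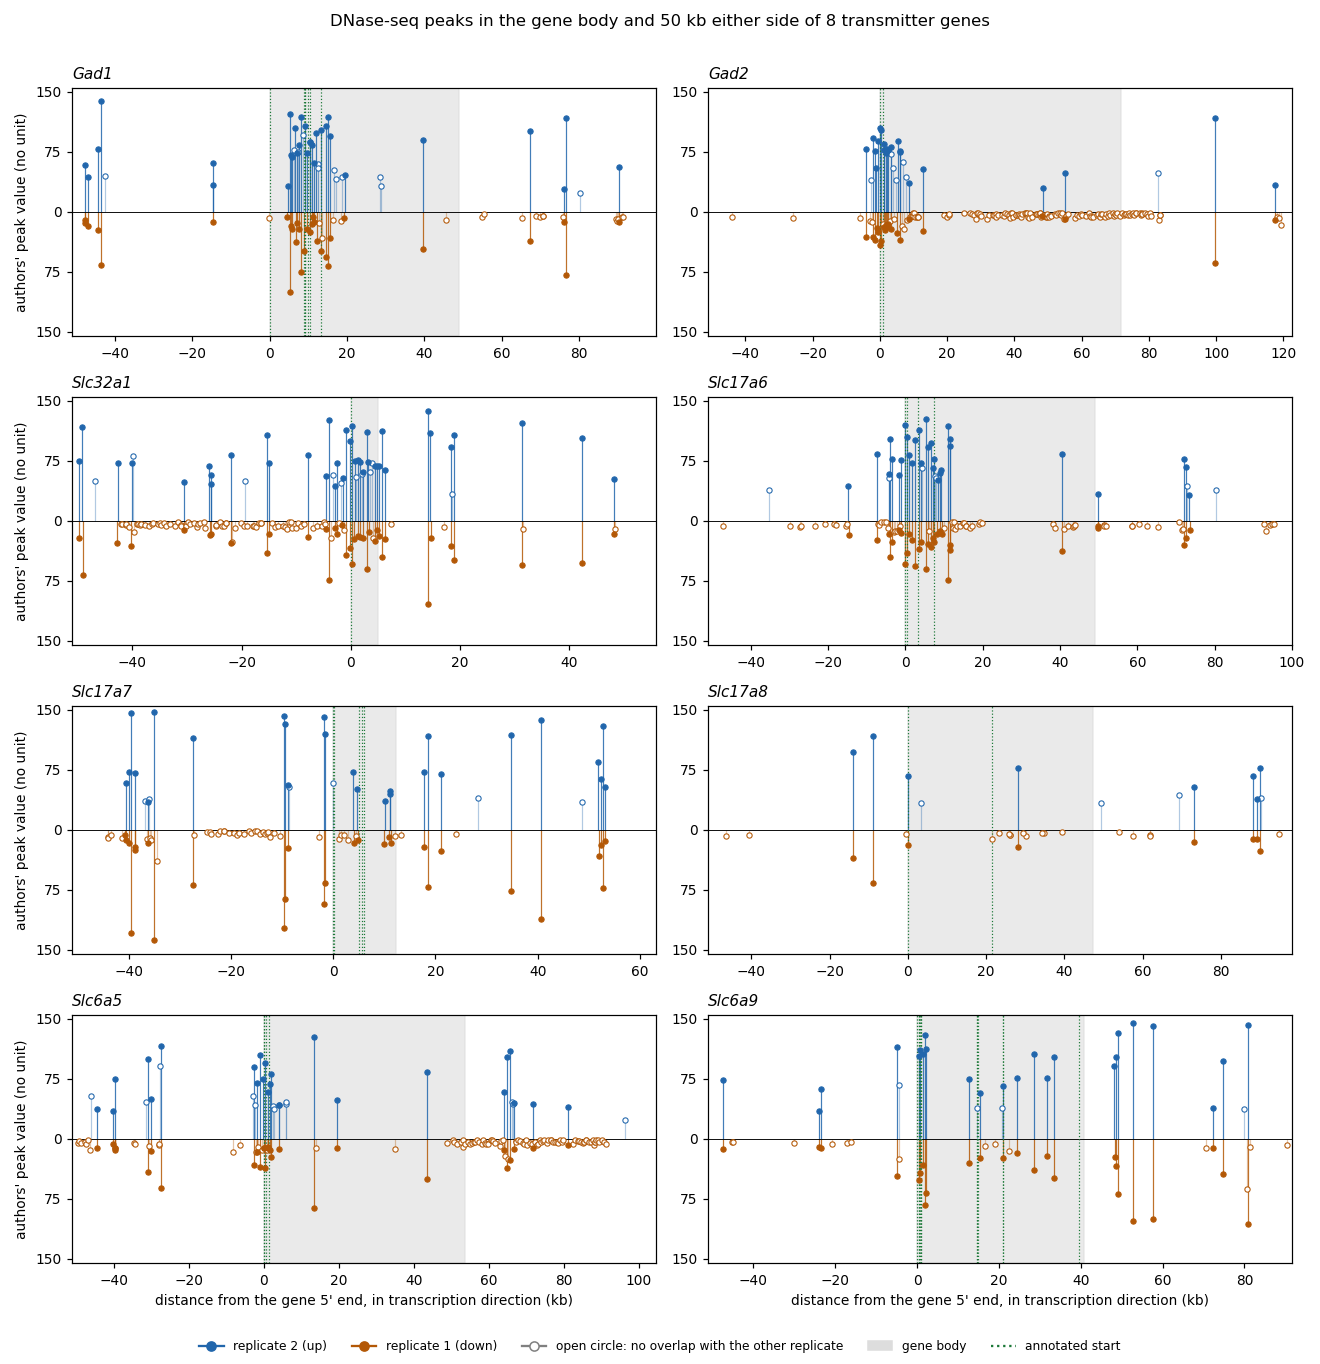
Each lollipop is a peak, placed by its distance from the gene 5′ end (horizontal axis, kb, positive downstream) and its height the authors' peak value (no unit), replicate 2 upward in blue and replicate 1 downward in orange; filled circles overlap a peak of the other replicate, the grey band is the gene body and dotted lines are annotated starts. Shared peaks crowd around the starts of Gad1, Gad2, Slc32a1 and Slc17a6, and replicate 1 has long rows of low, unshared peaks, 141 of 162 at Gad2.

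The counts differed widely among the members. Slc32a1 had the most shared window peaks, 38, which put it at percentile 99.3 among genes of the same length decile. Gad1 had 31 shared peaks, at percentile 97.4, and Slc17a6 had 30, at percentile 96.9. Slc17a7 followed with 26, Slc6a5 and Slc6a9 with 24 each, and Gad2 with 22. Slc17a8 stood apart with 8, at percentile 25.0 of its decile. The window of Gad2, a gene in a longer decile where the median is 15, came to percentile 78.1.

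Not all of these peaks need belong to the member. At Slc17a6, all 30 shared peaks had the member's as their nearest protein-coding start. At Slc32a1 this held for 29 of 38, at Gad1 for 23 of 31 and at Gad2 for 20 of 22. At Slc17a7 it held for only 4 of 26. That gene sits among 11 protein-coding neighbours, and 16 of its 26 shared peaks lay within 1000 bp of another gene's start. Slc6a5 kept 17 of 24, Slc6a9 13 of 24 and Slc17a8 4 of 8.

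The replicates differed in what lay outside the shared peaks. At Gad2, replicate 1 had 162 window peaks, of which 13.0% were shared, and the unshared ones had a median value of 4. At Slc6a9, replicate 1 had 38 peaks, of which 63.2% were shared. In replicate 1, rows of closely spaced, low peaks filled the Gad2 body, the upstream side of Slc32a1 and the downstream side of Slc6a5, mostly without an overlapping peak in replicate 2. The cause was not tested.

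**Figure D3:**
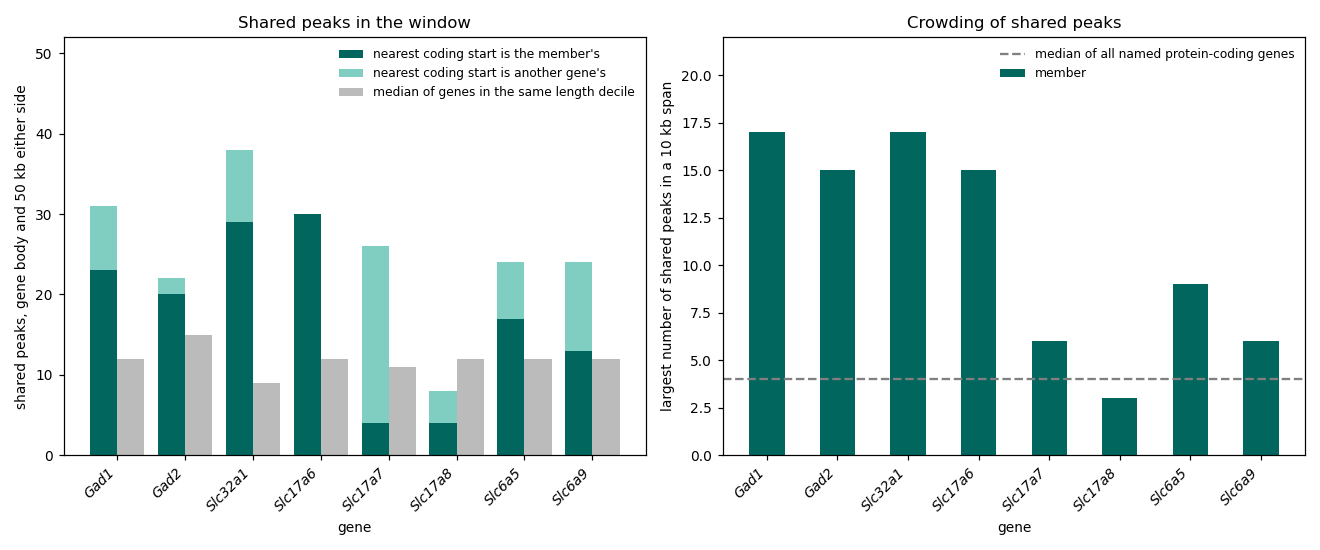
Left, shared peaks in the gene body and 50 kb on either side (count), split by whether the nearest protein-coding start is the member's (dark) or another gene's (light), with the median of genes in the same length decile in grey; right, the largest number of shared peaks in any 10 kb span of that window (count), with the median of all genes, 4, as a dashed line. Gad1, Gad2, Slc32a1 and Slc17a6 reach 15 to 17 peaks in a span.

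Shared peaks crowded into short stretches at the GABA genes and at Slc17a6. This was looked at after the peak positions had been seen. At least 10 shared peaks fell within a single 10 kb span at 4 of 8 members, against 4.84% of all genes. Gad1 had 17 in such a span, between 4.70 and 14.4 kb downstream of its 5′ end. Slc32a1 had 17 as well, between -4.48 and 5.12 kb, so that its run covers the whole gene. Gad2 had 15, between -4.07 and 5.91 kb, and Slc17a6 had 15, between -1.11 and 8.87 kb.

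The remaining members were less crowded. Slc6a5 had 9 shared peaks in its densest span, at percentile 93.9 of all genes, also around its start. Slc17a7 and Slc6a9 had 6 each, and Slc17a8 had 3. The median over members was 12, against 4 over all genes. Requiring an overlap of at least 75 bp left 3 of 8 members with 10 or more, against 2.61% of all genes, because Gad2 came to 8. The crowding of Gad1, Slc32a1 and Slc17a6 ranked higher in replicate 2 than in replicate 1, and that of Gad2 did not. With replicate 2 alone the spans of Gad1, Gad2, Slc32a1 and Slc17a6 stood at percentiles 99.5, 99.0, 99.7 and 98.4. With replicate 1 alone they stood at 81.1, 99.7, 94.1 and 88.8, where 50.1% of all genes had 10 or more.

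**Figure D4:**
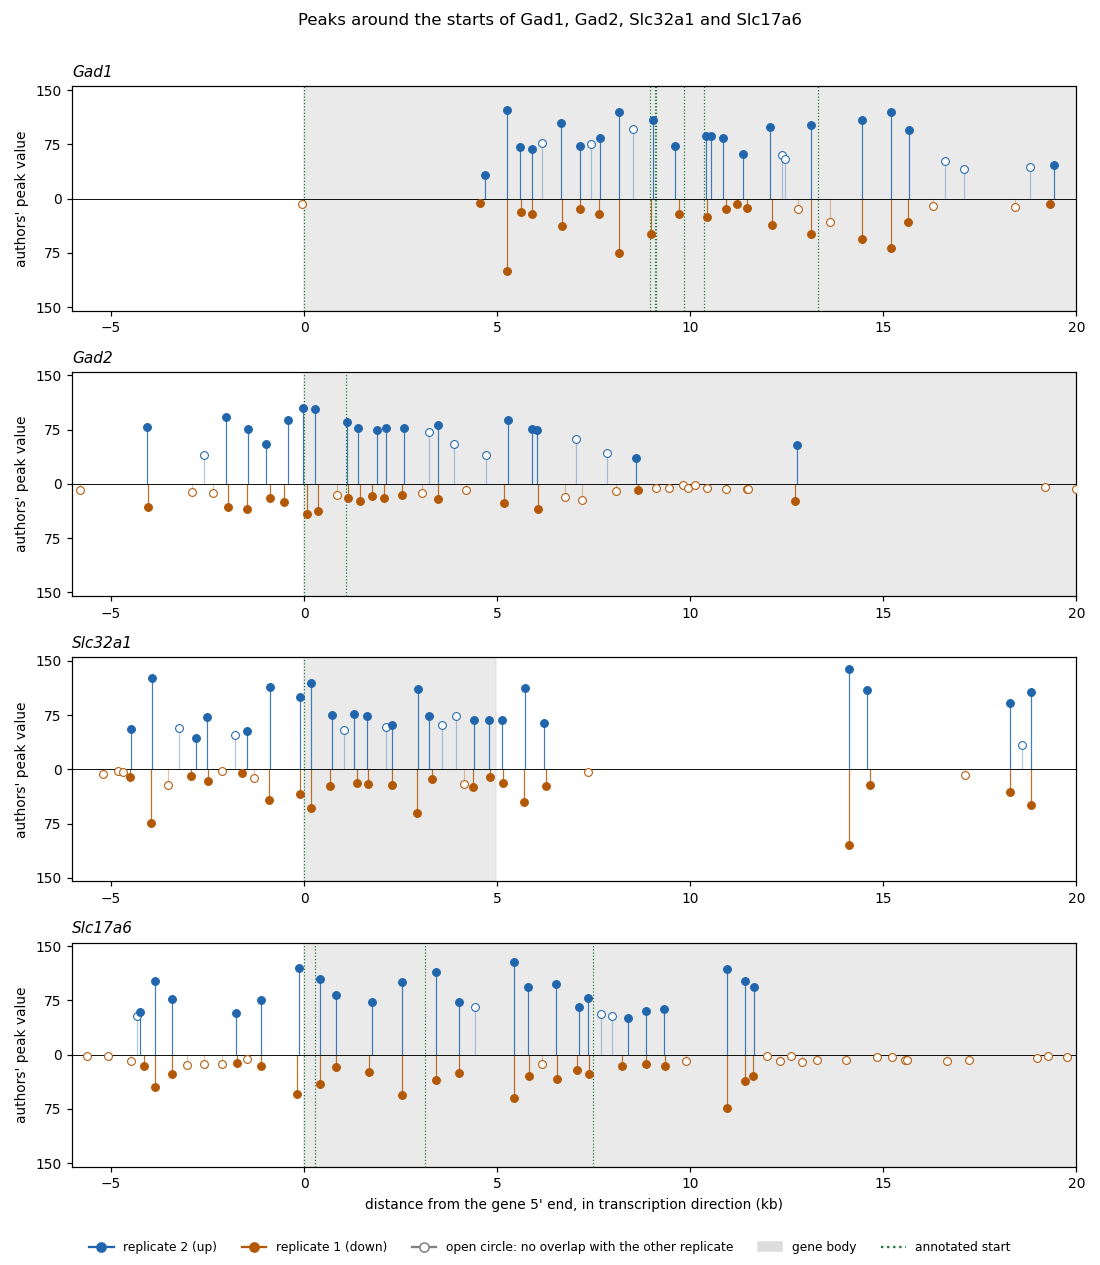
Peaks from 6 kb upstream to 20 kb downstream of the 5′ ends of Gad1, Gad2, Slc32a1 and Slc17a6 (horizontal axis, kb); height is the authors' peak value (no unit), replicate 2 upward in blue and replicate 1 downward in orange, filled where the other replicate overlaps, with the gene body in grey and annotated starts dotted. The Gad1 run begins 4.70 kb inside the gene and straddles the internal starts, the first of them at 8970 bp. The runs of Gad2, Slc32a1 and Slc17a6 straddle the 5′ end.

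By position, 96 of the 203 shared peaks lay in introns, 67 between genes, 21 in untranslated exon parts, 12 in coding exons and 7 in noncoding exons. Distal peaks made up 144 of the 203. The distal peaks of the members were a little richer in G and C than all shared distal peaks, with a median of 51.3% in members' peaks and 49.3% in all. Peaks near the members' own starts were slightly poorer, with medians of 61.3% for 29 member peaks and 62.7% for all near-start peaks. They held a median of 7 CpG pairs against 10. The 30 peaks near another gene's start were left out of this class, while distal peaks were kept whichever gene was nearest.

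Consensus matches were counted in the 150 bases of each shared peak, on both strands. A match is a description of the letters and not evidence of binding. Either GATA form, AGATAA or TGATAA, occurred in 9 of 32 distal peaks of Slc32a1 (28.1%) and in 0 of 27 of Slc17a6, against 12.5% of all shared distal peaks. Among the rest, Slc6a5 had 3 of 16, Gad2 2 of 18, Slc17a8 2 of 6, Gad1 and Slc6a9 1 each, of 22 and 13, and Slc17a7 0 of 10. Over the 8 members together the shares were close to those of all shared distal peaks. AGATAA was in 10 of 144 (6.94%), against 7.22% of all. TGATAA was in 9 of 144 (6.25%), against 5.77% of all. Slc32a1 and Slc17a6 are given first because of these counts, after 20 motifs had been looked at in all 8 genes, and no test was made.

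**Figure D5:**
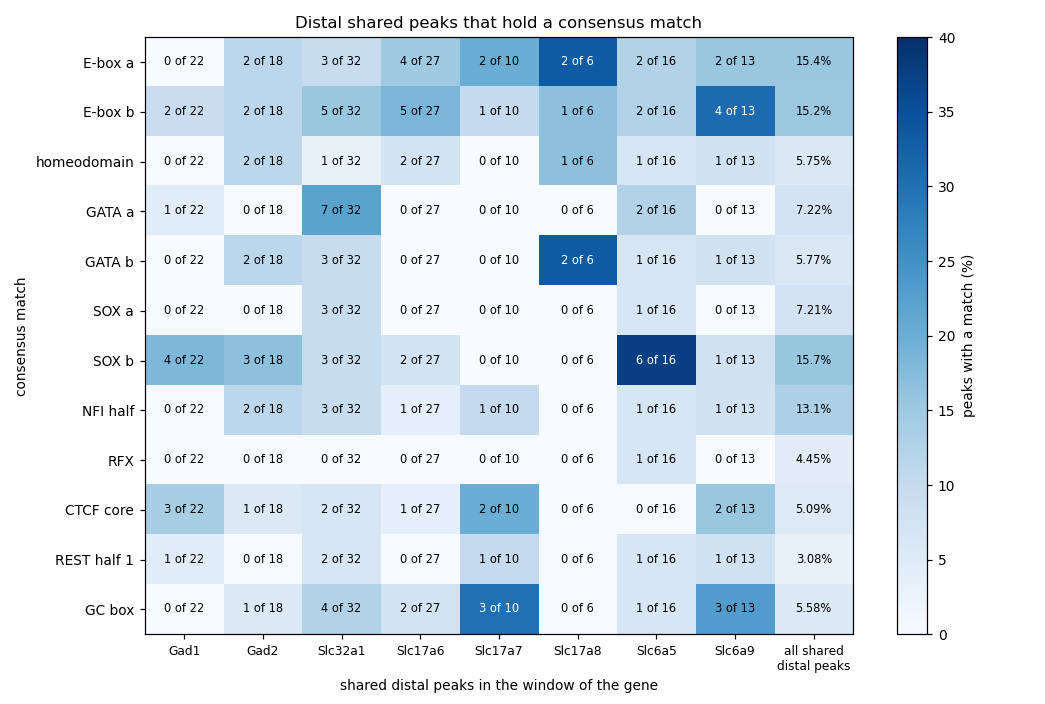
Number of shared distal peaks in each member's window that hold an exact consensus match (cells, with colour for the share in percent), beside the share over all shared distal peaks in the last column. In the rows marked a the E-box is CAGATG, the GATA form begins with A and the SOX form is AACAAT, and in those marked b they are CAGCTG, the form that begins with T, and ACAAAG; the first GATA row shows 7 of 32 at Slc32a1, and columns with few peaks, such as the 6 of Slc17a8, give coarse shares.

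The E-boxes CAGATG and CAGCTG are the letters read by neurogenic bHLH factors. Either occurred in 2 of 22 distal peaks of Gad1, 4 of 18 of Gad2, 7 of 32 of Slc32a1 and 8 of 27 of Slc17a6. It was in 3 of 10 of Slc17a7, 3 of 6 of Slc17a8, 4 of 16 of Slc6a5 and 5 of 13 of Slc6a9, against 28.1% of all. The NFI letters TTGGCA was in 6.25% of the members' distal peaks against 13.1% of all, the RFX core GTTGCCA in 0.694% against 4.45%, and the SOX form AACAAT in 2.78% against 7.21%. The SOX form ACAAAG was in 6 of 16 distal peaks of Slc6a5, against 15.7% of all, and in 19 of 144 over the 8 members. The GC box GGGCGG was in 14 of 144 distal member peaks (9.72%) against 5.58% of all. Near the members' own starts it was in 6 of 29 (20.7%), against 38.9% of all near-start peaks. The CTCF core AGGGGGC was in 7.64% of the members' distal peaks against 5.09% of all. Peaks that overlap each other were each counted, such as those of Gad1 at -14641 and -14561, which both hold this match.

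The full REST element, written TCAGCACCNNGGACAGC, was found in 1 of the 203 member peaks, at Gad1 +6659. Among all shared peaks it was in 112 of 171264 shared peaks (0.0654%). At Gad1 both parts stand 2 bases apart, as the capitals above show. The part GGACAGC alone was in 6 of the 144 distal member peaks (4.17%), against 3.08% of all.

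The wider transmitter pathway showed open promoters nearly throughout. Of 28 genes for GABA uptake and breakdown, glutamate supply and uptake, glycine metabolism and the chloride gradient, 26 had a shared promoter peak, against the same 68.9% of all genes. Their median percentile was 59.7, against 45.7 for the 8 members. The lists stood in this order: chloride gradient at 65.1, glutamate supply at 62.4, glycine metabolism at 60.4 and GABA uptake and breakdown at 49.8.

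Among GABA uptake and breakdown genes, 5 of 6 had a shared promoter peak. Abat, the transaminase that breaks GABA down, was highest with values of 109 in replicate 1 and 144 in replicate 2. Slc6a12, a betaine and GABA transporter, had no shared peak and was lowest, at 13 and 35. Among glutamate genes, 13 of 14 were open. Glul, which makes glutamine in glia, had the highest mean percentile, with values of 123 in replicate 1 and 145 in replicate 2, where Got1 stood higher at 146. Slc1a7, a glutamate transporter best known from retina, had none shared, with no peak in replicate 1 and a value of 36 in replicate 2.

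All 6 glycine genes had a shared promoter peak. Gcsh, a subunit of the glycine cleavage system, had the highest mean percentile, with values of 111 in replicate 1, where Dld stood higher at 114, and 146 in replicate 2. Amt, another subunit, was lowest at 27 and 85. Both chloride transporters were open. Slc12a2 (NKCC1), which loads chloride into young neurons, had 97 in replicate 1 and 143 in replicate 2. Slc12a5 (KCC2), which extrudes it in mature ones, had 68 and 131.

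All 7 vesicular release genes had a shared promoter peak, against 68.9% of all genes, and their median percentile was 53.8. Slc18a1, a vesicular monoamine transporter, was highest, at 121 in replicate 1 and 144 in replicate 2, and Slc18a3, the acetylcholine carrier, lowest at 21 and 89. A promoter peak of a list gene may lie nearer to another gene's start, which was not checked. Among marker genes of dopamine, serotonin, noradrenaline and acetylcholine together, 10 of 12 had a shared promoter peak, against 68.9% of all genes. Their median percentile was 35.0, against 45.7 for the 8 members, though the ranges overlapped: Tph2, the enzyme of serotonin synthesis in neurons, stood at 44.2, above Gad2 at 43.2. Th, the rate-limiting enzyme of dopamine synthesis, had no promoter peak in replicate 1 and one of value 42 in replicate 2. Dbh, which makes noradrenaline, had a peak of value 4 in replicate 1 and none in replicate 2.

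The gene most like each member was found by distance over 4 percentiles, those of the strongest promoter peak and of the number of window peaks in each replicate. Gad1 was nearest to Iqca at a distance of 2.17, Gad2 to Barhl1 at 2.85 and Slc32a1 to Fam19a2 at 2.16. Slc17a6 was nearest to Gipc2 at 2.15, Slc17a7 to Des at 1.61 and Slc17a8 to Tff2 at 2.84. Slc6a5 was nearest to L3mbtl4 at 1.90 and Slc6a9 to Pmf1 at 2.00. The search covered only genes outside the member list, so likeness between members was not tested.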

How the data were processed

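DNase-seq of embryonic midbrain was analysed from each replicate's own lists of peaks and hotspots on mm10, per the labels. No source used here gives the aligner, the peak caller or the read depth. Peaks in the deposited lists are 150 bp wide, apart from 2, with the authors' score, a whole number of at most 150, used to rank peaks within a replicate. The deposited hotspot lists give a −log10 q value with a largest value of 100.

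Genes came from GENCODE M21 and sequence from RefSeq GRCm38.p6, with coordinates 1-based. In a check of the build, 99.9% of 59255 start codons read ATG. Percentiles rank a gene among all named protein-coding genes, including those with no promoter peak. Motifs were exact matches on either strand to those spelled out in the text and to TGACCT (nuclear receptors), TGACGTCA (CRE) and the EBF, full NFI, NRF1 and POU octamer consensus. Steps were tested on simulated data. The tools were numpy 2.4.6, pandas 2.3.3 and samtools under Python 3.11.15. Up to 3 distal peaks per member, all 8 members, and in each pathway list the highest, the lowest and any gene without a shared promoter peak were named. The members and lists were chosen with earlier results of these data known. Alternatives covered the promoter window, the starts used, the flank, the overlap, hotspots and leaving out a replicate.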

Additional observations from a re-analysis of the deposited data

How the results depend on the processing

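Of 34 alternatives for the summary results, 26 stayed within the tolerance and 8 moved past it. The tolerance looks at the members' value alone and not at the share over all genes, which also shifts with the setting. The tolerance was a ratio of 1.5 for counts and, for the promoter percentile, the SD between replicates of 0.0363, so that small shifts of the percentile count as moved. The members' median promoter percentile of 45.7 became 45.3 with 500 bp on either side of a start, 49.1 with 2000 bp, 47.0 with the gene's 5′ end only, 46.8 with protein-coding starts only and 67.5 with hotspots in place of peaks, where 6 of 8 members tie at the largest hotspot value. It ran from 45.7 to 45.8 with either replicate left out. The median of 25 shared window peaks became 39 with 100 kb flanks, against 21 for all genes. In the gene body only it was 10.5, against 2. A single list has no shared peaks: counting all its peaks, the median was 34.5 without replicate 1, against 18 for all genes, and 80.5 without replicate 2, against 30. With either replicate left out, 8 members had a promoter peak in the other. With an overlap of at least 75 bp, 7 had a shared one, against 67.9% of all genes, and Slc17a8 did not. The number of members with a crowded 10 kb span was 5 without replicate 1, against 14.2% of all genes, and 6 without replicate 2, against 50.1%. The crowded-span settings were added after the values had been seen. No paired analysis was possible because there is 1 group. Read depth is unknown, so a site with no peak may be open below detection.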
